A study of Rattus norvegicus with 17 samples.

Results

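The effect of stimulating the nucleus raphe magnus (NRM) on the uninjured spinal cord, ±st(0), was examined in 9 of the 17 rats of the series. The members were taken by the group letter in the sample titles: 4 rats of group A (numbered 70, 82, 83 and 84) had a sham injury and sham stimulation, and 5 rats of group E (69, 85, 86, 87 and 88) had a sham injury and NRM stimulation. All were young adult female Sprague-Dawley rats, and those of both groups were anesthetized, laminectomized without contusion and carried an electrode in the NRM, so that ±st(0) sets current against an implanted electrode without current. The treatment label of the group E samples calls them unstimulated, which contradicts the design of the series and the study's methods. They are called stimulated here on the strength of these. The letter E in their titles takes its meaning from the study's definition of the groups and is not a separate source. The remaining groups serve for scale: B (SCI, a contusion of the thoracic cord, with sham stimulation, 3 rats), C (SCI with stimulation, 3 rats) and D (SCI with stimulation after the receptor antagonist pimozide, 2 rats). Each rat gave 1 library of total RNA depleted of ribosomal RNA, from cervical, thoracic and lumbar blocks combined with their pia-arachnoid, and a count therefore averages over long stretches of cord and over all its cell types.

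The NRM is a midline group of serotonergic and other neurons in the medulla whose axons descend to the whole length of the cord, and it is best known for its control of pain and of spinal excitability. Besides mRNA, a total RNA library holds small nuclear RNAs (snRNAs), which form the core of the spliceosome, small nucleolar RNAs (snoRNAs), which guide the processing and chemical modification of other RNAs, and the Y, vault and 7SL RNAs, which are parts of cytoplasmic RNA-protein particles. These are made in every cell and are not markers of a cell type.

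Counts were tested for 15460 genes of the 32494 in the table, with edgeR's quasi-likelihood test. Levels are given as CPM, the counts of a gene scaled to a common library size, and calls required both an FDR below 0.05 and a change of more than 1 on the log2 scale. Of the identifiers in the table, 99 could be paired with a name, and 98 of those were tested: 34 small RNAs, 15 erythroid, 11 neutrophil and granulocyte, 5 platelet and megakaryocyte and 5 interferon-response genes, and 28 others. The erythroid genes are 15 of the 16 on the marker list, but the neutrophil and granulocyte genes are 11 of 15, the platelet and megakaryocyte genes 5 of 8 and the interferon-response genes 5 of 14, so that these 3 lists are covered only in part. These are genes that the study itself listed, so their direction in a contrast the study took them from is not independent evidence. Of the markers of spinal cord cells only Slc17a7, the vesicular glutamate transporter of excitatory neurons, could be paired (5.83, 4.16, 1.71 and 4.24 CPM in rats 70, 82, 83 and 84, and 3.57 to 7.26 CPM in group E), so the labelled tissue could not be checked further.

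One library of the control group stood apart from the others. In rats 70, 83 and 84 of group A the 34 small RNAs summed to 562, 496 and 497 CPM, whereas in rat 82 of the same group they summed to 3146 CPM. In group E they summed to 3616 CPM in rat 69, 3255 in rat 85, 2141 in rat 86, 1975 in rat 87 and 5022 in rat 88. Rat 82 thus lay within the range of the stimulated rats and the other 3 controls lay below all of them. The injured rats fell on either side in the same way: B and C, the latter stimulated, spanned 378 to 627 CPM, and the 2 rats of D had 2425 and 2974 CPM. Of the 17 libraries, 9 held 378 to 627 CPM and 8 held 1975 to 5022 CPM, with none between. Depth overlapped between these sets, at 9852873 to 11664116 counts in the 9 and 10513421 to 14137717 counts in the 8, and its part in the small RNA level was not tested. A swapped label and an effect on the library of rat 82 cannot be told apart from these files, and a swapped label would change what the values of group A mean. No rat of E had a small RNA level like that of the other controls (lowest 1975 CPM). The results are therefore given with and without this rat. Rat 82 was singled out after its values were seen and because they resembled group E, and the values without it are not independent support for a difference.

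**Figure D1:**
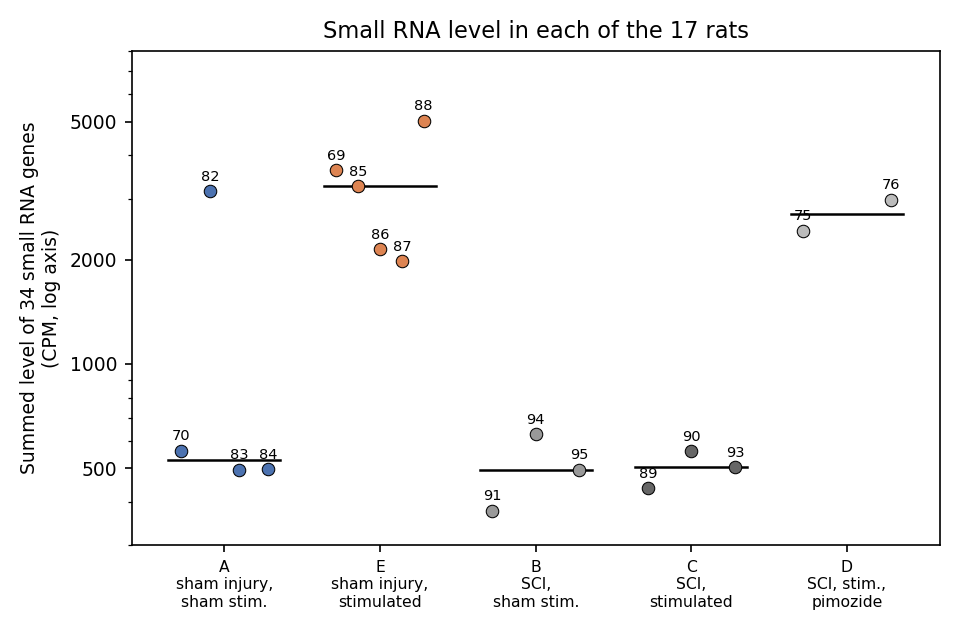
Summed level of 34 small RNA genes (CPM, log axis) in each rat, numbered, by group, with the group median as a line. Rat 82 of group A, at 3146 CPM, sits among the 5 stimulated rats of group E (1975 to 5022 CPM), and groups B and C sit with the other controls.

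With all rats, no gene was called in E against A and none passed an FDR of 0.05 at any fold (percent called 0), and the smallest adjusted p was 0.24 in edgeR's quasi-likelihood test. At an unadjusted p under 0.05 there were 1297 genes, 554 higher in E (3.58% of those tested) and 743 lower (4.81%). The levels of the 2 groups did not overlap for 200 genes higher in E (1.29%) and 181 lower (1.17%). The count of calls turned on the test. DESeq2 on the 17 rats called 17 genes (12 higher, 5 lower) and edgeR's exact test 15 (8 higher, 7 lower). The exact test on the 9 rats alone called 32 (25 higher, 7 lower) when scaled by total counts, over the 22893 genes with a count in these rats, and 28 (20 higher, 8 lower) with TMM factors over all 32494 genes. The study's methods name this test and scaling by total aligned reads, and state no filter. A quasi-likelihood fit of the 9 rats alone called 0, with 1638 genes at an unadjusted p under 0.05.

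It also turned on rat 82. Without it 49 of 15439 genes were called by the quasi-likelihood test, 41 higher in E (0.266%) and 8 lower (0.0518%). Leaving out any of the other 8 rats gave 0 calls, with 740 to 1708 genes at an unadjusted p under 0.05. Of the 41 genes called higher, 27 were among the 34 named small RNAs, 2 were other named genes (Rps27a-ps1 and LOC100361457) and 12 could not be paired with a name. In each of these 41 genes rat 82 lay above the other 3 controls, as it did in 3999 of all 15460 genes tested. In each of the 8 called lower it lay below them. It fell inside the range of the E rats for 38 of the 41 and 7 of the 8. Over all 15460 genes, rat 82 was at or above the lowest E rat in 13394. The test called these genes only once rat 82 was left out. That favors genes in which rat 82 lay toward E, so these counts are not independent evidence.

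**Figure D2:**
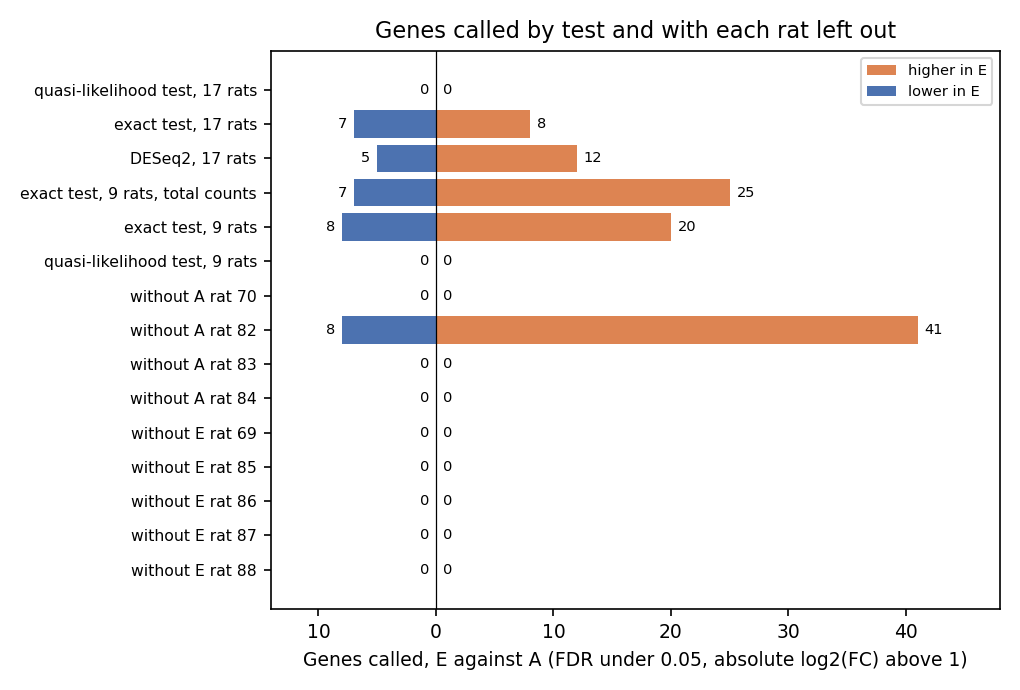
Genes called in E against A (bars to the right higher in E, to the left lower), by test and with each rat left out of the quasi-likelihood test in turn. The exact tests and DESeq2 called 15 to 32 genes with all rats, and the quasi-likelihood test called 49 without rat 82 and 0 otherwise.

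The small RNAs made up the largest group of named genes. Of the 34 tested, 33 had a higher mean in E, 31 of them at an unadjusted p under 0.05 (background 3.58%), and their median log2(FC) was 1.51 against 0.01 over all genes tested. None passed the FDR with all rats by the quasi-likelihood test. On the 17 rats the exact test called 5 of the 34 and DESeq2 8. On the 9 rats alone DESeq2 called 4 of 32, and the exact test 6 of 35, or 10 of 35 when scaled by total counts. Without rat 82 the median was 2.35, 27 of the 34 were called (background 0.266%), and in 33 the 5 E rats lay above the 3 remaining controls (background 5.72%). The study took most of them from the contrast of D with C, which shares no rat with E or A, while 6 were also in its list for ±st(0), so that the direction of those 6 is not independent evidence. Most of the rest were picked for a higher level in D, whose 2 rats are among the 8 libraries with a high small RNA level. The 34 genes were measured in the same 9 libraries and moved together, so they are not 34 independent observations. By class, 8 of the 9 snRNAs, 12 of the 17 snoRNAs and 7 of the 7 miscellaneous RNAs (the Y, vault and 7SL RNAs and 2 that were not paired with a human name) were called without rat 82. The snoRNAs include AC127784.3, which the study types as a small nucleolar RNA in its list for ±st(0). Its supplementary list of human orthologs types this gene as protein-coding but pairs it with human SNORD83B. The single mitochondrial tRNA, AY172581.15, had an adjusted p of 0.085 there by the same test. Many of these genes have near-identical copies in the genome, and the GeneCounts function of STAR counts only reads that align to a single place, so that reads shared by copies are lost and values of single copies are uncertain.

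**Figure D3:**
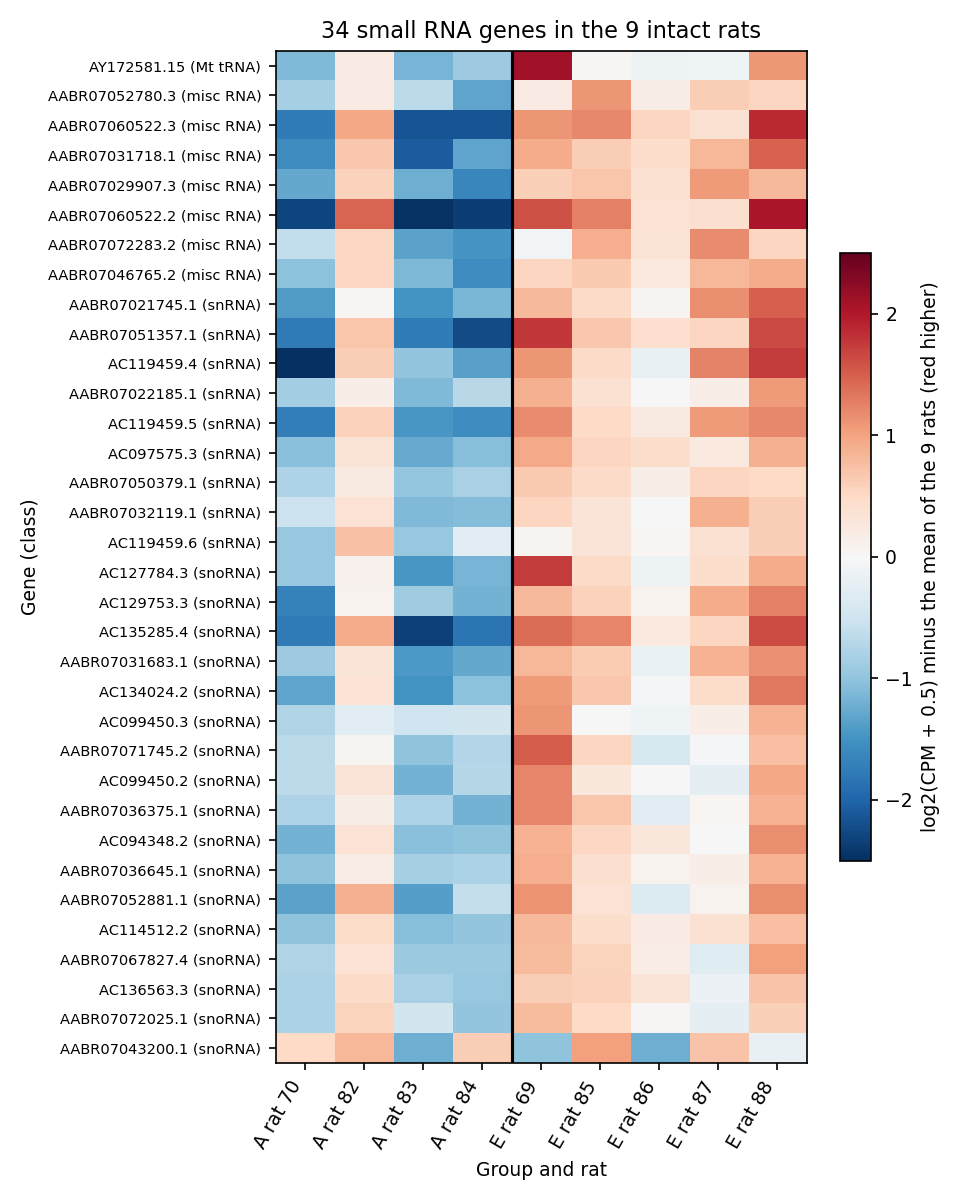
Level of the 34 small RNA genes (rows, with their class) in the 9 intact rats (columns, group A left of the line), as log2(CPM + 0.5) minus the mean of the 9 rats. Rats 70, 83 and 84 are low in nearly all rows and rat 82 resembles group E; AABR07043200.1 in the bottom row does not follow the others.

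Among the 9 named snRNAs tested, AC097575.3 (ENSRNOG00000052742), paired by the study with human RNU4-1, the U4 snRNA that carries U6 into the spliceosome, was the most abundant. It stood at 65.9, 172, 56.8 and 64.9 CPM in rats 70, 82, 83 and 84, and at 263, 198, 184, 163 and 253 CPM in rats 69, 85, 86, 87 and 88. Only rat 87 of group E lay below rat 82, and all 5 lay above the other controls. Its log2(FC) was 1.23 ± 0.27 (SE; quasi-likelihood test of edgeR, adjusted p = 0.26) with all rats and 1.76 ± 0.17 (adjusted p = 0.00025) without rat 82, which corresponds to means of 212 ± 43.9 CPM (SD, n = 5) in E and 62.5 ± 4.98 CPM (SD, n = 3) in the remaining controls.

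The U5 snRNA, which aligns the exon ends during splicing, was represented by 4 paired genes. AABR07021745.1 (ENSRNOG00000057562, human RNU5E-1) was 1 of the 2 small RNAs, of 34, in which A and E did not overlap with all rats (background 1.29% higher in E). It had 0.729, 2.82, 0.665 and 0.987 CPM in rats 70, 82, 83 and 84 and 5.27, 4.06, 2.94, 6.85 and 8.75 CPM in rats 69, 85, 86, 87 and 88. Rat 82 was the highest control and rat 86 the lowest stimulated rat, with a narrow gap between them. Its log2(FC) was 2.03 ± 0.46 (adjusted p = 0.26) and without rat 82 2.79 ± 0.49 (adjusted p = 0.014). The other U5 genes, AC119459.4, AC119459.6 and AABR07022185.1, had a log2(FC) of 1.76, 0.81 and 1.73 with all rats and 2.95, 2.64 and 2.73 without rat 82. All 3 were near or below 10 CPM except in rat 88, at 14.9 CPM of AC119459.4, and AC119459.6 was not called without rat 82 either (adjusted p = 0.23 by the same test).

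AABR07051357.1 (human RNU6ATAC, the catalytic U6atac snRNA of the minor spliceosome, which removes a rare class of introns) had 1.67, 11.5, 1.71 and 1.09 CPM in rats 70, 82, 83 and 84. In E it had 24.8, 11.4, 9.45, 10.3 and 22.9 CPM in rats 69, 85, 86, 87 and 88. Here 3 of the 5 stimulated rats lay at or below rat 82, and the remaining controls were several-fold lower. Its log2(FC) of 1.92 ± 0.53 (adjusted p = 0.36) became 3.39 ± 0.44 (adjusted p = 0.0016, quasi-likelihood test) without that rat. Of the snRNAs without a human name, AC119459.5 had a log2(FC) of 1.64 with all rats and 2.80 without rat 82, and AABR07050379.1 1.23 and 1.84.

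Among the snoRNAs, AC129753.3 (ENSRNOG00000056054; human SNORD118, the U8 snoRNA needed for the large ribosomal subunit) had the smallest p of all named genes with all rats. Its levels were 0.834, 4.08, 1.80 and 1.38 CPM in rats 70, 82, 83 and 84 and 7.06, 5.94, 4.06, 7.70 and 9.72 CPM in rats 69, 85, 86, 87 and 88. Rat 86 was level with rat 82 and the other 4 stimulated rats lay above every control. The log2(FC) was 1.71 ± 0.34 (adjusted p = 0.24, quasi-likelihood test), and 2.34 ± 0.31 (adjusted p = 0.002) without rat 82. With all rats DESeq2 and the exact test gave adjusted p-values of 0.0026 and 0.0042 for it.

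AC135285.4 (human SNORA74A, a guide of pseudouridylation) stood out for the distance between rat 82 and its group. Its levels were 2.08, 16.2, 1.23 and 1.97 CPM in rats 70, 82, 83 and 84, and 22.5, 19.8, 9.87, 12.2 and 26.5 CPM in rats 69, 85, 86, 87 and 88. The log2(FC) was 1.70 ± 0.54 (adjusted p = 0.43) with rat 82 and 3.36 ± 0.39 (adjusted p = 0.00076, quasi-likelihood test) without it. The most abundant of the 17 named snoRNAs, AC136563.3, had 180, 434, 178 and 163 CPM in rats 70, 82, 83 and 84 and 481, 469, 391, 281 and 513 CPM in rats 69, 85, 86, 87 and 88, so that 2 stimulated rats lay below rat 82. It had a log2(FC) of 0.84 ± 0.25 with all rats and 1.30 ± 0.17 (adjusted p = 0.0016 by the same test) without rat 82.

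The next 4 snoRNAs paired with human H/ACA genes, the class that guides pseudouridylation, had log2(FC) values of 1.07 (AABR07036645.1, SNORA49), 1.23 (AC094348.2, SNORA38B), 1.55 (AC134024.2, SNORA21) and 1.59 (AABR07031683.1, SNORA13) with all rats. The other small RNA without overlap between A and E was AC099450.3 (SNORD32A), a low gene with 0.313, 0.628, 0.475 and 0.493 CPM in rats 70, 82, 83 and 84 against 0.770 to 2.47 CPM in E. Its log2(FC) was 1.53 ± 0.41 (adjusted p = 0.35) and it did not pass the FDR without rat 82 (adjusted p = 0.14, quasi-likelihood test). The smallest difference among the abundant named snoRNAs was that of AABR07072025.1 (SNORA57), with a log2(FC) of 0.69 with all rats. Without rat 82 its log2(FC) was 1.17 (adjusted p = 0.022, quasi-likelihood test). The exception in direction was AABR07043200.1, a gene with no paired human name, which had a log2(FC) of -0.39 ± 1.02 and was listed at 0 in rats 83 and 86.

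In group E the Y RNAs were the 2 most abundant of the named small RNAs. AABR07060522.3 and AABR07060522.2, both assigned by the study to the Y RNA family, had 175 and 88.9 CPM in rat 70, 131 and 78.2 in rat 83, and 131 and 84.7 in rat 84. In rat 82 they had 1154 and 1199 CPM. In E the first had 1265, 1343, 857, 763 and 2150 CPM and the second 1311, 1040, 564, 578 and 1801 CPM in rats 69, 85, 86, 87 and 88. Rats 86 and 87 lay below rat 82 in both genes, rat 85 in the second, and every E rat exceeded rats 70, 83 and 84 several-fold. With all rats the log2(FC) was 1.68 ± 0.55 and 1.54 ± 0.68 (adjusted p = 0.44 and 0.57, quasi-likelihood test), and without rat 82 it was 3.13 ± 0.33 and 3.66 ± 0.38, both with an adjusted p of 0.00025.

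The vault RNA AABR07031718.1 (human VTRNA1-3, part of the vault particle) had 3.33, 17.5, 2.18 and 4.05 CPM in rats 70, 82, 83 and 84 and 20.9, 16.95, 14.8, 19.7 and 31.2 CPM in rats 69, 85, 86, 87 and 88. Its log2(FC) was 1.57 ± 0.46 (adjusted p = 0.40) with all rats and 2.70 ± 0.37 (adjusted p = 0.0022, quasi-likelihood test) without rat 82. The 7SL copies AABR07046765.2 and AABR07052780.3, related to the RNA of the signal recognition particle, had log2(FC) values of 1.31 and 1.78, and 2.18 and 2.95 without rat 82. The summed level of all 34 small RNAs averaged 3202 ± 1237 CPM in E (SD, n = 5), against 1175 ± 1314 CPM in A (n = 4) and 518 ± 38.0 CPM without rat 82 (n = 3), a ratio of the means of 2.73 and 6.18. Rats 69 and 70 belong to an earlier series of rat numbers than the other 7, and the pair differed in the same direction as the rest (3616 CPM in E, 562 in A). What the numbers stand for, such as a batch or a date, is not stated.

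**Figure D4:**
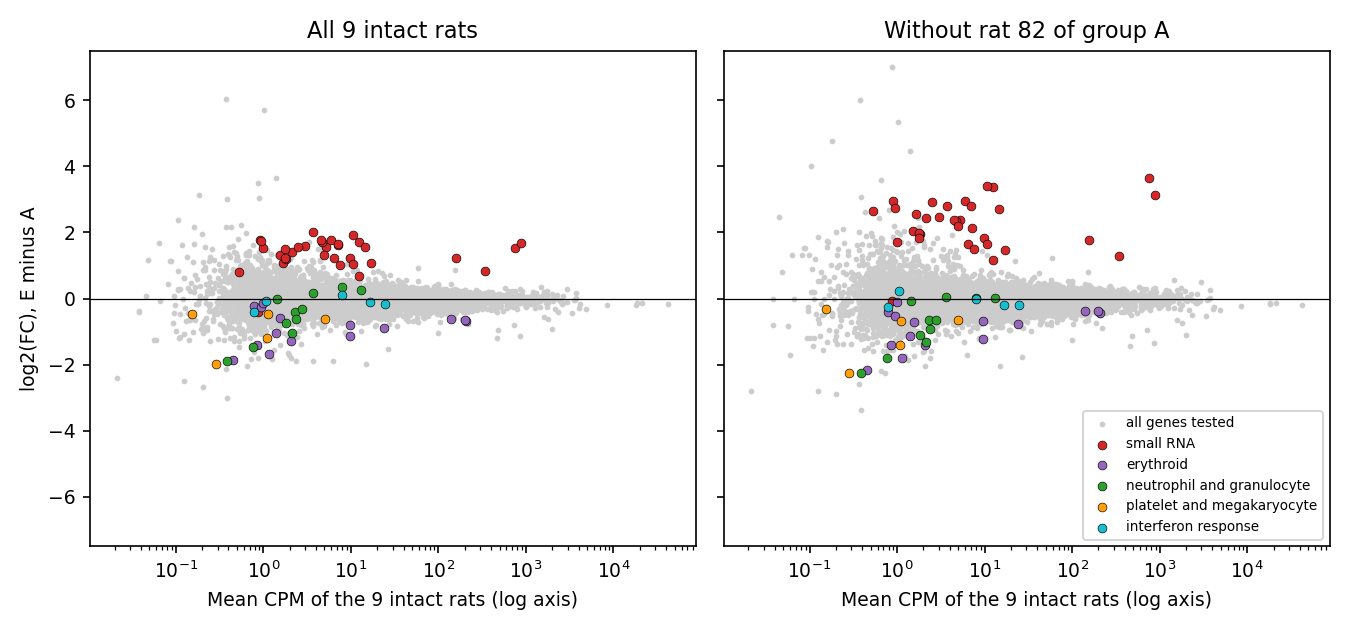
log2(FC) of E minus A against the mean level of the 9 intact rats (CPM, log axis) for all genes tested (grey) and the named groups (colored), with all 9 rats (left) and without rat 82 (right). The small RNAs lie above 0 at every level in both panels except AABR07043200.1, with a median of 1.51 on the left and 2.35 on the right, and the erythroid genes lie below 0 in both.

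Of the 28 other named genes, 0 separated the groups without overlap when all rats were kept. Over all genes tested 1.29% did so higher in E and 1.17% lower, so 0 of 28 is no result about these genes. Hnrnpa2b1, which encodes a protein that binds pre-mRNA in the nucleus, had 126, 90.04, 146 and 154 CPM in rats 70, 82, 83 and 84 and 79.3, 92.7, 84.2, 108 and 93.4 CPM in rats 69, 85, 86, 87 and 88. Rat 82 again lay inside the range of E and the other controls lay above it. The log2(FC) was -0.49 ± 0.13 (adjusted p = 0.31) with all rats and -0.63 ± 0.11 (adjusted p = 0.01, quasi-likelihood test) without rat 82, under the limit on fold in both. Dnah17 and Dnah8, heavy chains of axonemal dynein, had log2(FC) values of -1.37 ± 0.38 and -1.66 ± 0.59 (adjusted p = 0.36 and 0.48 by the same test). For Dnah17 the difference rested on rats 82 and 83, at 5.10 and 7.502 CPM, while rats 70 and 84, at 2.08 and 1.78 CPM, were close to the 1.14 to 2.03 CPM of E.

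The ribosomal protein pseudogenes Rps27a-ps1 and Rps21-ps1 behaved like the small RNAs. Rps27a-ps1 had 0.625, 2.35, 0.570 and 0.395 CPM in rats 70, 82, 83 and 84 and 1.40 to 2.98 CPM in E, with a log2(FC) of 1.22 ± 0.42 (adjusted p = 0.47) and, without rat 82, 2.16 ± 0.38 (adjusted p = 0.014, quasi-likelihood test). Rps21-ps1 had a log2(FC) of 0.97 with all rats and 1.502 without rat 82. Such copies share sequence with their parent genes, and their values are uncertain for the same reason. LOC100361457 had a log2(FC) of 0.75 ± 0.35 and 1.43 ± 0.30 without rat 82 (adjusted p = 0.59 and 0.038 by the same test), and LOC102555453 one of -0.66. RGD1564883 was either present or nearly absent in single rats of both groups, at 15.4, 14.6, 0.760 and 11.5 CPM in rats 70, 82, 83 and 84 and 6.21, 0, 0.140, 8.17 and 0.0875 CPM in rats 69, 85, 86, 87 and 88.

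Of the 20 genes that the rule for named genes picked from those without overlap, 10 in each direction, 19 could not be paired with a name. ENSRNOG00000055019 had 2.29, 3.53, 1.61 and 0.888 CPM in rats 70, 82, 83 and 84 and 7.74, 6.33, 3.78, 5.35 and 6.92 CPM in rats 69, 85, 86, 87 and 88, with a log2(FC) of 1.502 ± 0.29 (adjusted p = 0.24, quasi-likelihood test). ENSRNOG00000009970 differed less but spread little, at 8.78 to 10.7 CPM in A and 12.6 to 14.3 CPM in E (log2(FC) 0.46 ± 0.09). Its rat 82, at 10.7 CPM, was the highest control and lay clear of E. Lower in E were ENSRNOG00000017352, at 29.8, 19.8, 25.5 and 26.4 CPM in rats 70, 82, 83 and 84 against 15.5 to 18.5 CPM (log2(FC) -0.60 ± 0.11), and ENSRNOG00000033299, at 165, 79.8, 168 and 143 CPM against 61.4 to 73.0 CPM (log2(FC) -1.05 ± 0.21). In both, rat 82 was the control nearest to E.

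Blood cell genes differed widely between rats of the same group. The 15 erythroid genes summed to 214, 1092, 1059 and 670 CPM in rats 70, 82, 83 and 84 and to 581, 300, 257, 611 and 631 CPM in rats 69, 85, 86, 87 and 88. Rat 70 was the lowest of all 9 and the other 3 controls lay above every E rat. All 15 had a log2(FC) below 0, against 47.8% of all genes tested, with a median of -0.79 (-0.72 without rat 82), and 5 had an unadjusted p under 0.05 (background 4.81%) but none passed the FDR. The 15 genes were measured in the same 9 libraries and are not 15 independent observations. In bulk tissue, fewer cells of a type and less RNA per cell cannot be told apart, and how much blood each cord retained was not measured.

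The 5 were Kel, Ermap, Ahsp, Hbb-b1 and Slc4a1. Slc4a1, the anion exchanger of the red cell membrane, had 1.98, 11.1, 25.4 and 16.8 CPM in rats 70, 82, 83 and 84 and 3.91, 3.83, 2.73, 9.29 and 12.2 CPM in rats 69, 85, 86, 87 and 88. The groups overlapped through rat 70, the lowest, and through rat 88, above rat 82. Its log2(FC) was -1.13 ± 0.52 (adjusted p = 0.57, quasi-likelihood test). Kel, a blood group antigen, had the largest difference of the 5 (log2(FC) -1.69 ± 0.56, adjusted p = 0.44 by the same test). Ahsp, the chaperone of alpha globin, and Ermap, an erythroid membrane protein, had log2(FC) values of -1.27 and -1.40. Hba-a1, an alpha globin gene and the most abundant of the list, had 74.6, 389, 353 and 236 CPM in rats 70, 82, 83 and 84 and 96.3 to 217 CPM in E, with a log2(FC) of -0.68 ± 0.39 (adjusted p = 0.67 by the same test).

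The promoters of 3 genes of this list are shown as examples: Alas2, the first enzyme of heme synthesis in red cells, and the globin genes Hba-a1 and Hbb-b1. All 3 hold a motif marked below, whereas the promoters of Ermap, Klf1, Epb42, Kel and Rhag hold neither motif. They run from 250 bases before to 50 bases after the start of the gene, in the RefSeq annotation of GRCr8. Capitals mark the motifs AGATAA, the kind of sequence that erythroid GATA factors recognize, and CCNCNCCC, the kind that Klf1 recognizes, searched on both strands. Of the 12 erythroid genes with an entry, 3 held the first and 6 the second, and 11.6% and 46.3% of all 33469 promoters given did. Hemgn has more than 1 entry and was counted once. With 12 genes, 6 is near the share over all promoters, and a role of either motif here was not tested.
Alas2 (chrX:22895200-22895499, plus strand): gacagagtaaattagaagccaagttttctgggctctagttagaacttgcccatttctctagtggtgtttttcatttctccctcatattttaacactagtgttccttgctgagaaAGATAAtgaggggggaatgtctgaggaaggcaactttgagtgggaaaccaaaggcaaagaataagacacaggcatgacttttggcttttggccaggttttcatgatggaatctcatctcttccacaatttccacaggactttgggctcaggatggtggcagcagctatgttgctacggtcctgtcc
Hba-a1 (chr10:15842531-15842830, minus strand): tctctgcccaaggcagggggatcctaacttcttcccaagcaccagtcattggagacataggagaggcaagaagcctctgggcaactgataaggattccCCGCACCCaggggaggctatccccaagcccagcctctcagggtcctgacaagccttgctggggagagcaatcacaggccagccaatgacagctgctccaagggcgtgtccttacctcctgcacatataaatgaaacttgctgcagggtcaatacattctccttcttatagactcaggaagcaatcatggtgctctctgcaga
Hbb-b1 (chr1:167643471-167643770, minus strand): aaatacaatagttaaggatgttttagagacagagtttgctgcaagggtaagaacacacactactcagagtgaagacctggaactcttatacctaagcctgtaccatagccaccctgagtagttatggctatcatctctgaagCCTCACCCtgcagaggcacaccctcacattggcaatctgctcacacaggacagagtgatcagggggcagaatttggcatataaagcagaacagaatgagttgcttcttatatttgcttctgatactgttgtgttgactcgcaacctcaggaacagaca

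The 11 neutrophil and granulocyte genes summed to 6.56, 16.9, 38.1 and 95.6 CPM in rats 70, 82, 83 and 84 and to 7.65, 43.4, 10.99, 86.2 and 42.4 CPM in rats 69, 85, 86, 87 and 88. Rats 84 and 87 were the highest of their groups and rats 70 and 69 the lowest, and the groups overlapped throughout. The median log2(FC) was -0.40 and became 0.45 without rat 84, and 0 of the 11 had an unadjusted p under 0.05. S100a9, a subunit of the neutrophil protein calprotectin and the most abundant of the list, had a log2(FC) of 0.25 ± 0.64, and Elane, the elastase of neutrophil granules, one of -1.88 ± 0.94 that rested on 2.27 CPM in rat 84.

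The 5 platelet and megakaryocyte genes summed to 5.00, 8.08, 18.7 and 7.499 CPM in rats 70, 82, 83 and 84 and to 4.55 to 7.04 CPM in E, and rat 83 alone stood out. All 5 had a log2(FC) below 0, against 47.8% of all genes tested (median -0.63), and 3 had an unadjusted p under 0.05 (background 4.81%), but none passed the FDR. These were Itga2b, a subunit of the fibrinogen receptor (log2(FC) -0.63 ± 0.22, adjusted p = 0.48, quasi-likelihood test), Tubb1, the tubulin of platelets (-1.21 ± 0.54), and Ppbp, a platelet chemokine (-1.99 ± 0.92). Tubb1 had 3.99 CPM in rat 83, 0.592 to 0.941 CPM in the other controls and 0.391 to 1.41 CPM in E. Ppbp lay near the floor, at 0 to 0.950 CPM in A and 0 to 0.282 CPM in E. The 5 interferon-response genes summed to 48.1, 47.7, 43.5 and 73.4 CPM in rats 70, 82, 83 and 84 and to 39.6 to 60.4 CPM in E. Their median log2(FC) was -0.12 and 0 of the 5 had an unadjusted p under 0.05. Mx2, an antiviral GTPase and the most abundant, had a log2(FC) of -0.17 ± 0.30.

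**Figure D5:**
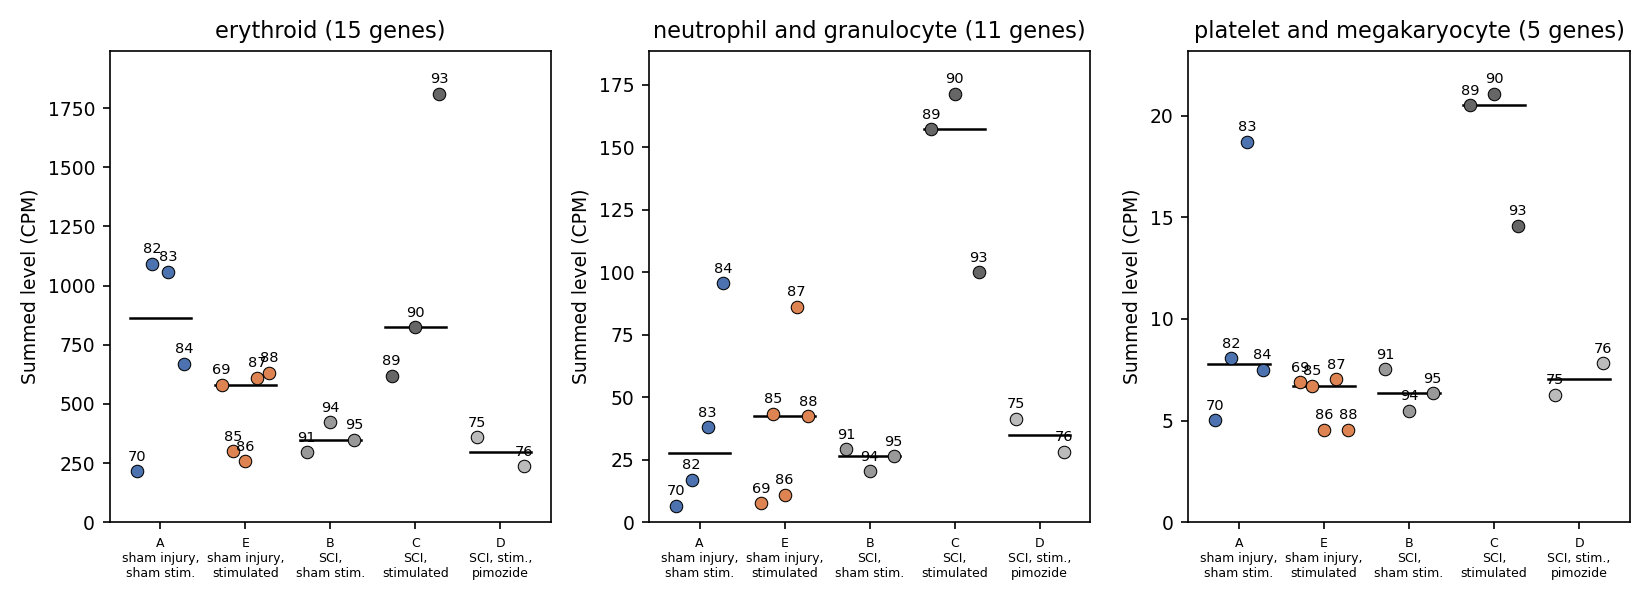
Summed level (CPM) of the erythroid, neutrophil and granulocyte, and platelet and megakaryocyte genes in each rat, numbered, by group, with the group median as a line. Groups A and E overlap in all 3 panels, and rat 70 is the lowest of A in each.

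Whether stimulation acted alike in intact and injured rats was tested as the difference of the 2 stimulation effects, C minus B less E minus A, in the same model. No gene was called (percent called 0), the smallest adjusted p was 0.80, and 635 genes had an unadjusted p under 0.05, 361 above 0 (2.34%) and 274 below 0 (1.77%). DESeq2 called 0 as well. For the small RNAs the difference was below 0 in 34 of 34 genes (median -1.42), 12 of them at an unadjusted p under 0.05 (background 1.77%). Without rat 82 the median was -2.22 and 31 of the 34 had such a p, against 399 of all 15439 genes. The 34 genes move together and are not 34 independent observations. Most of these genes were listed by the study for a lower level in C than in D, so the level of C, which enters this difference, helped to choose them and the direction is not independent evidence. Without rat 82, 3 genes were called, all small RNAs. These were the Y RNAs AABR07060522.2 and AABR07060522.3, with differences of -3.66 ± 0.51 and -3.20 ± 0.45, and the U4 snRNA AC097575.3 with -1.64 ± 0.24 (adjusted p = 0.02, 0.02 and 0.026, quasi-likelihood test). The U4 snRNA averaged 64.5 CPM in C and 59.2 CPM in B, against 212 CPM in E and 62.5 CPM in the 3 controls. Rat 82, unstimulated by its label, had 172 CPM, and the 2 rats of D, stimulated after pimozide, averaged 193 CPM.

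For the blood cell genes the difference ran the other way. It was above 0 in 15 of 15 erythroid, 11 of 11 neutrophil and 5 of 5 platelet genes, with medians of 2.67, 3.24 and 2.70, and 15, 9 and 5 of them had an unadjusted p under 0.05 (background 2.34%), but none passed the FDR. The study chose these genes on the injured rats, which fixes the direction of C minus B in part. Slc4a1 had a log2(FC) of 2.35 ± 0.64 in C minus B and -1.13 ± 0.52 in E minus A, and the difference was 3.49 ± 0.82 (adjusted p = 0.80, edgeR's quasi-likelihood test). The erythroid genes summed to 619 to 1811 CPM in C and 296 to 423 CPM in B, and the controls of A other than rat 70 (670 to 1092 CPM) lay inside the range of C.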

How the data were processed

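RNA of 17 rats was sequenced, 1 library each. According to the study's methods, the authors trimmed single-end reads with Trim Galore, aligned them with STAR and counted them per Ensembl gene. The submitters' processing notes give Trim Galore 0.4.1, STAR 2.5.0a and the build rn6 (Rnor_6.0), whereas the methods give an earlier build, and the strandedness column used is not given in the sources used here. The deposited counts are whole numbers that are not normalized, and 0 columns of the table were left unassigned. The rats had 9852873 to 14137717 counts on genes.

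Counts were fitted in R 4.3.3 with edgeR 4.0.16: filterByExpr, TMM scaling, glmQLFit with 5 group coefficients, and glmQLFTest with Benjamini-Hochberg adjustment over all genes tested. The study's methods describe edgeR's exact test, which was run as an alternative with DESeq2 1.42.0. SE is the absolute log2(FC) over the square root of F. CPM are scaled by TMM. Nothing in the labels says that samples of a group are other than separate rats. Within A and E the counts of 2 rats differed by a chi-square of 4.39 to 14.97 per degree of freedom, above sampling noise, so each library was counted as 1 sample. On simulated counts for E against A (15283 genes) the test called 35 of 67 genes changed 2-fold and 64 of 67 changed 3-fold. It called 65 of 66 changed 4-fold, and there were 2 false calls. A 2-fold change lies on the limit on fold itself, and 58 of those 67 genes passed the FDR. Recovery was not tested with a control library that resembles group E. The lack of calls in the real counts therefore cannot be read as a lack of such changes.

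The members and gene lists were chosen with earlier results of these data known. Named genes were those called, the 10 with the smallest p in each direction among genes at 1 CPM or more whose groups did not overlap, the study's listed genes, and in each list the members at an unadjusted p under 0.05 and the most abundant. The lists other than those reported matched no identifier (1 of 6 for inhibitory and excitatory neurons) because no annotation paired identifiers with names here. Sequences of the small RNAs were not used here.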

Additional observations from a re-analysis of the deposited data

Results flagged for a closer look

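Rat 82 of group A lay far from the other 3 controls, by Dixon's test for a single distant value, in 15 of the 26 small RNAs examined one by one, in the sum of all 34 and in Rps27a-ps1. The other 8 were not examined singly. Its values were 172 CPM for AC097575.3, 2.82 for AABR07021745.1, 17.6 for AABR07036645.1, 8.16 for AC119459.5, 1.96 for AABR07050379.1, 11.5 for AABR07051357.1, 1199 for AABR07060522.2, 1154 for AABR07060522.3, 17.5 for AABR07031718.1, 6.12 for AABR07046765.2, 16.2 for AC135285.4, 434 for AC136563.3, 5.49 for AC134024.2, 10.98 for AC094348.2, 6.20 for AY172581.15 and 2.35 for Rps27a-ps1. Its summed small RNA level was 3146 CPM, and the nearest other control had 562 CPM. These genes move together and are not separate signs.

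The other distant values were Tubb1 at 3.99 CPM in rat 83 of A and at 1.41 CPM in rat 87 of E, Elane at 2.27 CPM in rat 84 of A, and the summed interferon-response level at 73.4 CPM in rat 84 of A. In all, 21 distant values were found in 116 groups of rats tested (52 genes and 6 sums, in A and in E), 17 of them in rat 82. Chance alone gives about 1 in 20 groups.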

How the results depend on the processing

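The count of called genes, 0 with the quasi-likelihood test, was 15 with the exact test, 17 with DESeq2 on all rats, 16 with DESeq2 on the 9 intact rats, 28 with the exact test on these rats alone and 32 with the exact test on these rats scaled by total counts. Genes past the FDR at any fold, also 0, numbered 33, 48, 64, 57 and 63 in that order. The cause of these differences was not tested. With each rat left out in turn, 0 to 49 genes were called, 0 to 95 passed the FDR, 740 to 1859 had an unadjusted p under 0.05, and 0 to 3 were called in the difference of stimulation effects, the highest each time without rat 82 of group A. Total counts, RLE factors, scaling without globins or small RNAs (both added after seeing the data), other filters, robust dispersions, a number-series term and rats 82 to 95 alone gave 0 calls. Total counts moved the median log2(FC) of all genes to 0.05.

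The alternatives were computed for 52 genes examined one by one, 48 of the 98 named ones tested and 4 without a name. Among these, log2(FC) changed sign only with a rat left out: Mx2 ranged from -0.27 to 0.028, S100a9 from -0.38 to 1.26 and Elane from -2.31 to 0.42, with the upper end of each without rat 84. Without rat 82, 28 of the 52 passed the FDR, against 95 of all 15439 genes tested then. The 52 include 26 small RNAs and genes named for their p or lack of overlap in this contrast. They are therefore not a neutral sample of the genes. Scaling without mitochondrially encoded genes was not run, since their identifiers could not be paired. No paired analysis was possible because no rat number occurs in both groups. At 1 CPM a gene rests on few counts per rat, which limits the low genes.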
